A study of Mus musculus with 2 samples.

Results

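Rapid immediate early genes were followed through the neuron types and glia of the mouse brain 12 h after subarachnoid haemorrhage (SAH). They were 10 genes taken by symbol from the 32285 features of the count files, namely Fos, Fosb, Junb, Egr1, Egr3, Arc, Npas4, Nr4a1, Nr4a3 and Dusp1, and all 10 had UMIs in both libraries. The genes were picked with their Normal and SAH counts in these same libraries already known, so their levels and ratios are given as a description, with no test. Single nuclei had been prepared from 2 groups of male mice aged 6 to 8 weeks. In the SAH group the vessel had been perforated by the endovascular method and the brain was taken 12 h later. The other group is labelled Normal, and the labels name no treatment of its own. Tissue came from 1 hemisphere, on the side of the haemorrhage in SAH mice, over a block from the medial prefrontal cortex to the level of the centrolateral thalamic nucleus. Each library pooled tissue from 3 mice, so each condition had 1 library, no replicate, and no measure of the variation between mice. Whether Normal mice had a sham operation is not settled by the labels, whereas the paper calls the control brains of this sequencing sham.

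Immediate early genes are transcribed within minutes of synaptic activity or a growth stimulus, without the need for new protein, and their RNAs are short-lived. In neurons, calcium entry and the MAP kinase pathway act on factors that are already bound at their promoters, among them CREB and SRF, and the gene products then switch on a later wave of genes. Fos, Fosb and Junb encode subunits of the AP-1 transcription factor. Egr1 and Egr3 encode zinc finger factors, Npas4 a factor that responds to calcium in neurons, and Nr4a1 and Nr4a3 orphan nuclear receptors. Arc encodes a synaptic protein that takes part in the removal of AMPA receptors, and Dusp1 a phosphatase that switches MAP kinases off.

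The promoters that could be matched were searched for TGACG, the core of the cAMP response element, which CREB can bind. RefSeq promoter sequence (GRCm38.p6) was matched for 7 of the 10 genes, and the core, read on either strand, lay within 250 bases before the start site of 7 of these 7. The same letters were found in 17.8% of all 32851 promoters of that length. The windows that hold it are shown for 6 genes, with the core in capitals (TGACG, or CGTCA where it lies on the other strand), each 5′ to 3′ along the gene's own strand and in no annotated exon. The Nr4a1 and Dusp1 windows lie in introns of longer models of these genes, and the other 4 lie upstream of the gene in no other annotated gene.
Fos, chr12:85473755-85473864, plus strand: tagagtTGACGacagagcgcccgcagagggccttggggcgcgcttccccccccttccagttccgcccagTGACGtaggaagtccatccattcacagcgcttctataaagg
Fosb, chr7:19310076-19310125, minus strand: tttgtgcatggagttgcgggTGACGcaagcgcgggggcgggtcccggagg
Junb, chr8:84978829-84978878, minus strand: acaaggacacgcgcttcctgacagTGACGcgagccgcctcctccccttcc
Nr4a1, chr15:101266606-101266815, plus strand: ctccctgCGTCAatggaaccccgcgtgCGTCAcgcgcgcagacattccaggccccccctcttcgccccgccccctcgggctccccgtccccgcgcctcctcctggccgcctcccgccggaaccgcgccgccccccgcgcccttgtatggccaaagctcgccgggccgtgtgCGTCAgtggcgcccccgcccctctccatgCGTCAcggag
Nr4a3, chr4:48045065-48045114, plus strand: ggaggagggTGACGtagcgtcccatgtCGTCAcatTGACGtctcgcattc
Dusp1, chr17:26508598-26508672, minus strand: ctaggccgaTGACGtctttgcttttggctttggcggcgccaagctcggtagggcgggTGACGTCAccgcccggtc

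The full palindrome TGACGTCA, which contains the core, was found in Dusp1 alone of the 7 and in 1.55% of all promoters. Nr4a1 and Nr4a3 each carried 4 copies of the core within 250 bases, not all of those of Nr4a3 in the printed window, Dusp1 carried 3 and Fos 2. Among other motifs, the Egr site GCGNGGGCG was found in Fosb and Nr4a1 (4.70% of all promoters) and TATAAA in Fos (12.4%). The AP-1 site TGANTCA (6.75%) and the CArG box bound by SRF (1.47%) had no match in these 7 windows. The Npas4 window, with 2 copies of the core, overlapped an annotated exon and is not printed, and the promoters of Egr1, Egr3 and Arc were not used here.

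The Normal and SAH files held 12204 and 18209 nuclei with 114970719 and 172604358 UMIs. After filtering and removal of doublets, 10955 and 15536 nuclei were kept, with medians of 6864 and 7850 UMIs, and 88.5% and 83.6% of them could be placed in a class from marker genes. The defining markers of every type used were detected in both libraries, the scarcest being Sp8 in caudal ganglionic interneurons with 10 and 3 UMIs. The libraries shared 78 cell barcodes. Some types stood in different clusters in each library, most of all upper layer neurons, oligodendrocytes and microglia, and for these the values within shared clusters are given beside the whole type. A level is the UMIs of a gene over all UMIs of the nuclei of a type, scaled to counts per 1e+06 (CPM), and a ratio is the log2 of the SAH level over the Normal level. Intervals are exact at 95% and cover counting error only. Short genes as a class had lower levels in SAH nuclei of every type, so each sum also has a length-centred ratio. For each of the 10 genes the median ratio of the 500 genes nearest in length was taken. The median of these 10 values, not weighted by UMIs, was subtracted from the ratio of the sum. It ran from -0.65 in dentate granule neurons to -0.30 in excitatory neurons, and the 10 gene models run from 3.38 kb (Fos) to 56.5 kb (Dusp1). Where long genes hold much of the sum it can subtract too much. In hippocampal pyramidal neurons it was -0.61, where the values of Nr4a1 and Nr4a3 were -0.28 and -0.17. Lengths are those of whole gene models. The start sites of Nr4a1 and Dusp1 searched above lie inside longer models, so transcripts from those sites are shorter than the lengths used. Which transcripts gave the UMIs was not tested, so the length values of these genes are uncertain.

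In excitatory neurons all 10 genes were lower in SAH, from 2.16-fold for Dusp1 to 6.58-fold for Arc. Their sum was 145.8 CPM in 4435 Normal nuclei and 46.4 CPM in 5597 SAH nuclei, which is 3.14-fold lower (interval 3.02 to 3.27; log2 ratio -1.65, length-centred -1.35). There were 17995 genes with 50 or more UMIs here, of which 4.57% were lower by at least 2-fold and 8.12% higher, and of the 10 genes 10 were lower and 0 higher. Since the genes were picked on this contrast, nothing is read from such counts, here or in the other types. Among genes of like length the share was 11.2%. Inhibitory neurons showed a smaller gap, at 58.3 CPM in 2575 Normal nuclei and 28.0 CPM in 2931 SAH nuclei (log2 ratio -1.06, interval -1.18 to -0.94; length-centred -0.62). There 5 of the 9 genes with 50 UMIs were lower by 2-fold, beside 4.6% of all genes and 14.4% of genes of like length. By 2-fold 0 were higher, beside 5.96% of all genes.

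**Figure D1:**
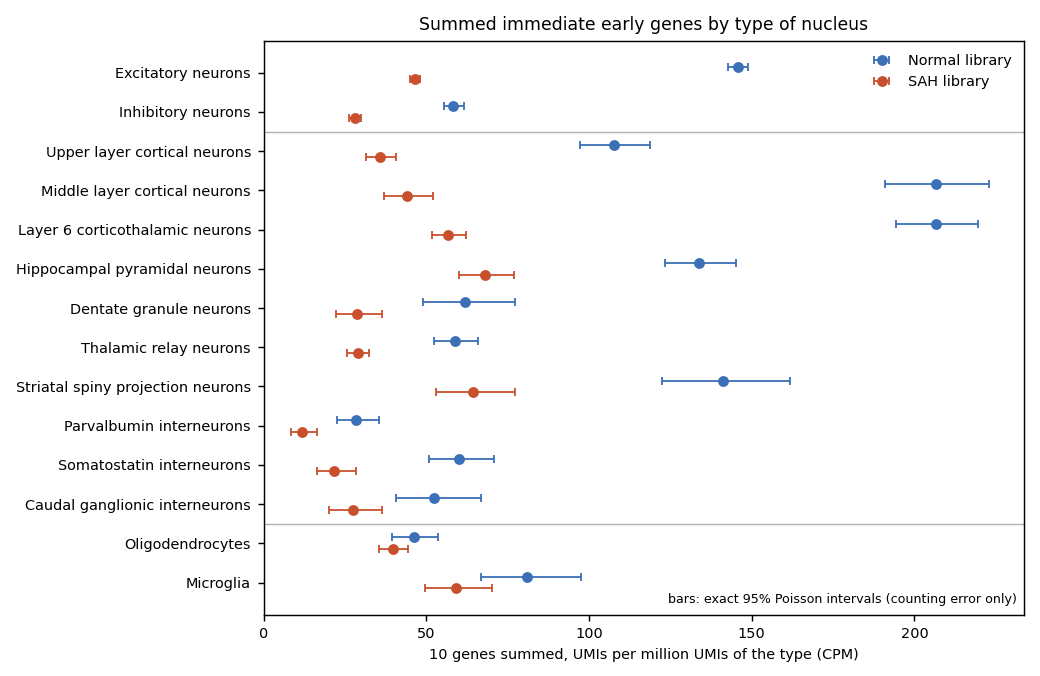
Summed level of the 10 genes in each type of nucleus, in CPM, with 1 point per library and exact 95% Poisson intervals. The Normal point lies above the SAH point in every type, the intervals are apart in the excitatory and inhibitory classes and in each neuron type, and they overlap in oligodendrocytes and microglia.

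Arc and Fos had the lowest SAH levels relative to Normal in excitatory neurons. Arc was at 14.4 CPM in the Normal library (825 UMIs) and at 2.19 CPM in the SAH library (171 UMIs), 6.58-fold lower as counted (interval 5.57 to 7.80). The Arc level in oligodendrocytes, glia that should lack it, was 9.50 CPM in Normal and 2.73 CPM in SAH. In thalamic relay neurons it was lower than in these glia, at 1.17 and 0.205 CPM (6 and 2 UMIs). The oligodendrocyte level is thus not a measured floor for neurons, and how much of their SAH level was free RNA was not tested. Fos was at 6.62 CPM (380 UMIs) and 1.05 CPM (82 UMIs), 6.32-fold lower (interval 4.96 to 8.12). The other AP-1 subunits had smaller gaps, with Junb at 10.1 and 3.51 CPM and Fosb at 1.24 and 0.422 CPM. The zinc finger factors and Npas4 were lower as well. Egr1 was at 20.6 CPM in Normal and 5.57 CPM in SAH, Egr3 at 13.4 and 4.70 CPM, and Npas4 at 15.5 and 3.99 CPM. Npas4 is the gene whose induction is most tied to neurons, and its log2 ratio was -1.96 (interval -2.15 to -1.77).

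The nuclear receptors differed from each other. Nr4a3 was at 19.9 CPM in Normal and 5.44 CPM in SAH excitatory nuclei (log2 ratio -1.87, interval -2.04 to -1.71), whereas Nr4a1 was at 37.5 and 16.4 CPM (-1.19, interval -1.29 to -1.09). Nr4a1 thus lay closer to its Normal level, and its share of all UMIs of the 10 genes was 25.7% in Normal and 35.4% in SAH. Dusp1 had the smallest gap, at 6.64 and 3.07 CPM (-1.11, interval -1.35 to -0.88). Its gene model overlaps 4 others, 2 of them on the same strand, and the Junb model overlaps Prdx2 on the opposite strand, so the counts of Dusp1 and Junb are less certain than those of the other 8 genes. Levels of astrocyte markers were 476 and 449 CPM in these Normal and SAH nuclei, those of microglia markers 85.5 and 110 CPM and those of oligodendrocyte markers 114 and 85.9 CPM. Blood cell genes stood at 5.17 and 1.69 CPM and mitochondrial genes at 541 and 422 CPM. Their part in the ratios was not tested.

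**Figure D2:**
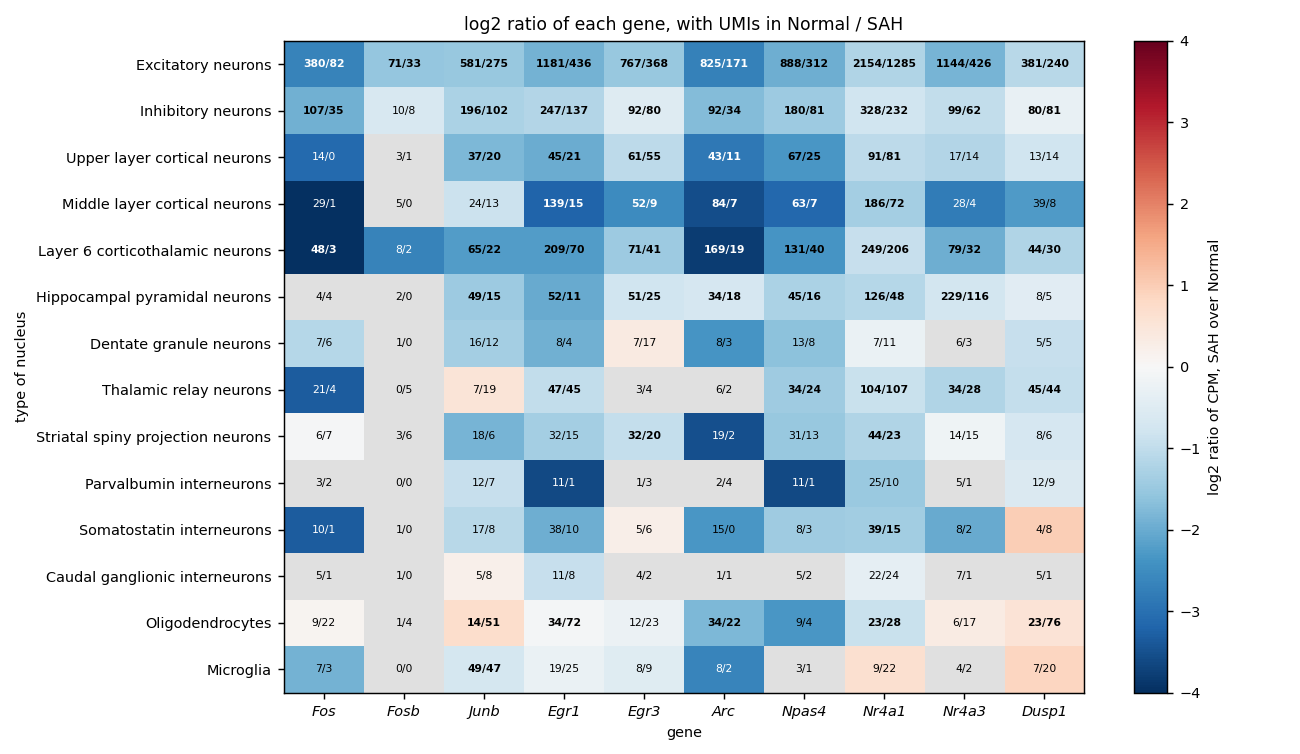
Log2 ratio of the CPM of each gene, SAH over Normal, by type of nucleus (blue is lower in SAH, red higher, colours end at 4 in either direction), with the UMIs of each library printed in the cell. Bold cells have at least 50 UMIs, grey cells under 10 have no ratio, and a cell with no SAH UMI is drawn at its bound. Nearly all cells of neurons are blue, and the few pale red cells hold 4 to 19 UMIs per library in neurons and 6 to 76 in glia.

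The same counts were also summed by cluster of nuclei. Among clusters with at least 50 nuclei in each library, the sum of the 10 genes was lower in SAH in 17 of 18 excitatory clusters, with a median log2 ratio of -1.72, and in 8 of 9 inhibitory clusters, with a median of -1.38. The intervals of both exceptions reached no difference, from -0.32 to 0.76 in the excitatory and from -0.07 to 1.25 in the inhibitory cluster. A cluster in which 228 of 481 nuclei were gated as dentate granule neurons had 43 Normal and 101 SAH UMIs (log2 ratio 0.21), and an inhibitory cluster with no named type had 28 and 77 UMIs (0.57).

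The middle layer and layer 6 of the cortex held the highest Normal sums and the largest gaps. Layer 6 corticothalamic neurons, which project to the thalamus, had a sum of 206.7 CPM in 414 Normal nuclei and 56.7 CPM in 647 SAH nuclei (log2 ratio -1.87, interval -2.03 to -1.71; length-centred -1.37). Middle layer neurons, the cortical layer that receives thalamic input, had 206.6 CPM in 252 Normal nuclei and 44.0 CPM in 233 SAH nuclei (log2 ratio -2.23, interval -2.51 to -1.96; length-centred -1.73). Their Normal sums could not be told apart by counting error. Among genes with 50 UMIs, 8 of 9 in layer 6 and 5 of 5 in the middle layer were lower by 2-fold, where 4.95% and 4.57% of all genes were. Of genes of like length, 14.8% and 18% were.

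Within layer 6, Arc was at 32.6 CPM in Normal (169 UMIs) and 2.32 CPM in SAH (19 UMIs), 14.0-fold lower as counted (interval 8.72 to 23.9). That SAH level was not above the 2.73 CPM of SAH oligodendrocytes. Fos had 48 UMIs in Normal and 3 in SAH, a ratio of 25.3-fold with an interval of 8.14 to 127. Egr1 was at 40.3 and 8.54 CPM and Npas4 at 25.2 and 4.88 CPM. The Normal interval of the level lay wholly above the SAH interval for each of the 10 genes but Fosb. How many of all genes had intervals apart in this way was not counted. The 10 genes were picked on this contrast, so nothing is read from it. Nr4a1 had the smallest gap here, at 47.96 CPM in Normal and 25.1 CPM in SAH (log2 ratio -0.93, interval -1.21 to -0.66). A single Normal layer 6 nucleus carried 89 of the 1073 UMIs of the 10 genes, and all 10 genes were detected in it.

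In the middle layer, Egr1 was at 44.2 CPM in Normal (139 UMIs) and 4.85 CPM in SAH (15 UMIs), and Arc at 26.7 CPM (84 UMIs) and 2.26 CPM (7 UMIs). Fos had 29 Normal UMIs and 1 SAH UMI, a ratio of 28.5-fold whose interval runs from 4.73 to 1165. Junb was at 7.64 CPM in Normal (24 UMIs) and 4.20 CPM in SAH (13 UMIs), with an interval of the log2 ratio of -1.96 to 0.17 that reached no difference, as did that of Fosb, with 5 Normal UMIs and none in SAH. The gap was present in each of the larger clusters of this type, with log2 ratios of the sum of -2.26 and -2.41.

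Upper layer neurons, which connect cortical areas to each other, had a sum of 107.6 CPM in 245 Normal nuclei and 35.8 CPM in 429 SAH nuclei (log2 ratio -1.59, interval -1.82 to -1.35; length-centred -0.99). Genes lower by 2-fold were 6 of 6 with 50 UMIs, beside 6.78% of all genes and 22.4% of genes of like length. Fos had 14 Normal UMIs and none in SAH. It was at least 6.16-fold lower by the exact 95% interval, and 8.67-fold lower when set against a floor of 3 UMIs in the SAH library. Arc was at 11.8 CPM (43 UMIs) and 1.63 CPM (11 UMIs), and Egr3 at 16.8 and 8.15 CPM. Most nuclei of this type fell in separate clusters by library, 159 Normal and 2 SAH nuclei in the first and 7 and 355 in the second. In the cluster that held both, with 65 and 53 nuclei of this type, the sum was 64.2 CPM in Normal and 17.6 CPM in SAH (log2 ratio -1.86, interval -2.70 to -1.09). It held 26.5% and 12.4% of the type and was mixed, since hippocampal pyramidal and dentate granule nuclei also fell in it. Its Normal sum was below the 132.7 CPM of the main Normal cluster.

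Hippocampal pyramidal neurons stood apart through Nr4a3. This receptor was at 51.1 CPM in Normal (interval 44.7 to 58.2) and 30.6 CPM in SAH (25.3 to 36.7), in each library above every other neuron type, the next being 15.2 CPM in Normal layer 6 and 8.54 CPM in SAH striatal neurons, with intervals apart. Its log2 ratio was -0.74 (interval -1.08 to -0.41). Egr1 was at 11.6 and 2.90 CPM, Nr4a1 at 28.1 and 12.6 CPM and Npas4 at 10.0 and 4.22 CPM. Arc, with 34 Normal and 18 SAH UMIs, had an interval that reached no difference (-1.59 to 0.19), and Fos had 4 UMIs in each library. Over 300 Normal and 221 SAH nuclei the sum was 133.9 and 68.0 CPM (log2 ratio -0.98, interval -1.19 to -0.77; length-centred -0.37), and 4 of 7 genes were lower by 2-fold, beside 6.57% of all genes and 23.8% of genes of like length.

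Dentate granule neurons, the entry cells of the hippocampus, gave a different picture by cluster. Over 139 Normal and 203 SAH nuclei the sum was 61.9 and 28.7 CPM (log2 ratio -1.11, interval -1.60 to -0.62; length-centred -0.46), with 78 and 69 UMIs in all. In the leading cluster, with 103 and 125 nuclei, it was 37.2 and 33.8 CPM (31 and 42 UMIs), a log2 ratio of -0.14 with an interval of -0.84 to 0.58. The gap of the whole type lay in nuclei outside that cluster. Among them were 24 Normal and 32 SAH nuclei of the mixed cluster named under upper layer neurons, at 109.9 and 17.9 CPM. No gene reached 50 UMIs here. Egr3 had 7 Normal and 17 SAH UMIs, and its interval ran from -0.996 to 1.86.

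Thalamic relay neurons carry sensory and arousal signals to the cortex. They had a sum of 58.8 CPM in 316 Normal nuclei and 28.9 CPM in 600 SAH nuclei (log2 ratio -1.03, interval -1.27 to -0.79; length-centred -0.62). Genes lower by 2-fold were 2 of 5 with 50 UMIs, where 3.73% of all genes and 13.2% of genes of like length were. By 2-fold 0 were higher, beside 4.66% of all genes. Npas4 was at 6.64 CPM in Normal (34 UMIs) and 2.46 CPM in SAH (24 UMIs), and Nr4a3 at 6.64 (34 UMIs) and 2.87 CPM (28 UMIs). Nr4a1 was at 20.3 and 10.9 CPM, Egr1 at 9.18 and 4.60 CPM, and Dusp1 at 8.79 and 4.50 CPM, each just under a 2-fold gap. Fos had 21 Normal and 4 SAH UMIs.

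Several of the genes were scarce in relay neurons. Egr3 had 3 and 4 UMIs and Arc 6 and 2 UMIs in Normal and SAH, and Fosb had none and 5. In the Normal library the Egr3 level of 0.586 CPM (interval 0.121 to 1.71) lay below that of upper layer, middle layer, layer 6 and striatal neurons. Parvalbumin interneurons were lower still, at 0.347 CPM (1 UMI). Junb had 7 Normal and 19 SAH UMIs (1.37 and 1.94 CPM), with an interval of the log2 ratio from -0.81 to 2.00. Relay nuclei of the larger cluster had a log2 ratio of the sum of -0.84 (interval -1.11 to -0.56) and those of the smaller cluster -2.01 (-2.52 to -1.502).

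Striatal spiny projection neurons, the output cells of the striatum, had a sum of 141.1 CPM in 145 Normal nuclei and 64.3 CPM in 166 SAH nuclei (log2 ratio -1.13, interval -1.48 to -0.80; length-centred -0.54). Here 1 of 2 genes with 50 UMIs was lower by 2-fold, beside 5.54% of all genes and 23% of genes of like length. Arc was at 12.9 CPM (19 UMIs) in Normal and had 2 UMIs in SAH, an 11.4-fold ratio with an interval of 2.74 to 101. Egr3 reached 21.8 CPM in Normal and 11.4 CPM in SAH, Npas4 21.1 and 7.40 CPM, and Nr4a1 30.0 and 13.1 CPM. Fos was level, at 4.09 CPM (6 UMIs) and 3.98 CPM (7 UMIs), with an interval of -1.83 to 1.81, and so was Nr4a3 at 9.54 and 8.54 CPM (-1.31 to 1.00). Both intervals are wide enough to hold a 2-fold gap.

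Interneurons had low levels to begin with. Somatostatin interneurons, which inhibit dendrites, had a sum of 60.03 CPM in 226 Normal nuclei and 21.7 CPM in 210 SAH nuclei (log2 ratio -1.47, interval -1.95 to -1.01; length-centred -0.88). Nr4a1, the gene with 50 UMIs, was lower by 2-fold at 16.1 and 6.13 CPM. So were 5.2% of all genes and 19.4% of genes of like length. Egr1 was at 15.7 and 4.09 CPM. Arc had 15 Normal UMIs and none in SAH, at least 3.63-fold lower by the exact interval and 5.06-fold lower against the floor of 3 UMIs. Parvalbumin interneurons, which fire fast and inhibit cell bodies, had the lowest sums of all types, 28.4 CPM in 252 Normal nuclei and 11.8 CPM in 251 SAH nuclei (log2 ratio -1.27, interval -1.86 to -0.69; length-centred -0.70). Egr1 and Npas4 each had 11 Normal UMIs and 1 SAH UMI there, and Fosb had none in either. Caudal ganglionic interneurons, the class with Vip cells, had 52.4 CPM in 172 Normal nuclei and 27.4 CPM in 219 SAH nuclei (log2 ratio -0.93, interval -1.502 to -0.38; length-centred -0.35). Nr4a1 held 22 of the 66 Normal and 24 of the 48 SAH UMIs of this class.

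**Figure D3:**
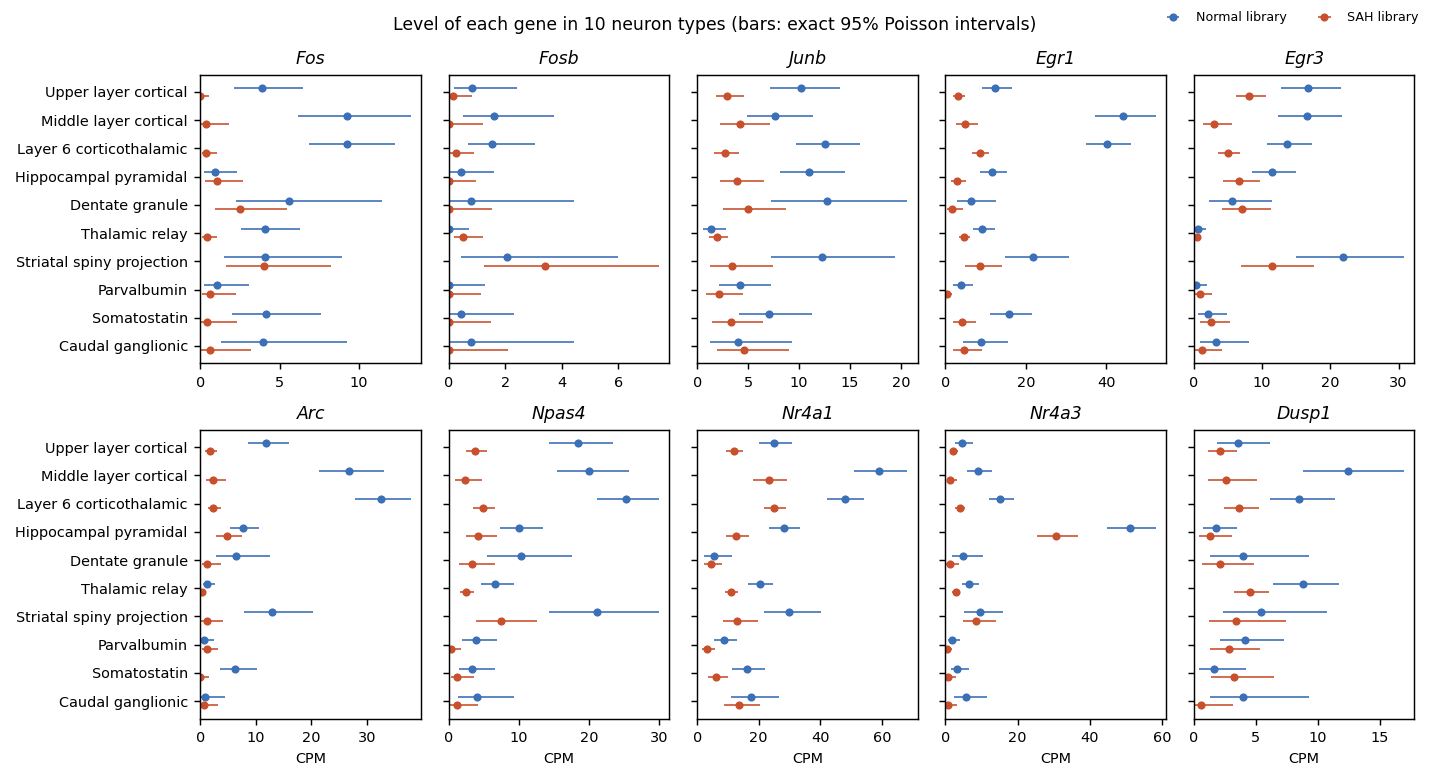
Level of each gene in 10 neuron types, in CPM, with 1 point per library and exact 95% Poisson intervals. Egr1 and Arc are highest in Normal middle layer and layer 6 neurons (26.7 to 44.2 CPM), Nr4a3 is highest in hippocampal pyramidal neurons of both libraries, and most SAH points lie near the left edge.

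The order of neuron types differed by gene. Arc was highest in Normal layer 6 neurons (32.6 CPM, interval 27.8 to 37.8) and middle layer neurons (26.7 CPM, 21.3 to 33.1), which could not be told apart, and then in striatal neurons (12.9 CPM, 7.80 to 20.2). Egr1 had the same leading pair, at 44.2 CPM in the middle layer and 40.3 CPM in layer 6, with striatal neurons next at 21.8 CPM (interval 14.9 to 30.8). In SAH these orders were flatter: the highest Arc level was in hippocampal pyramidal neurons at 4.74 CPM (interval 2.81 to 7.50), which overlapped the 2.32 CPM of layer 6, and layer 6 and striatal neurons led for Egr1 at 8.54 CPM each. Egr3 led in striatal neurons of both libraries, though the intervals overlapped those of upper layer neurons. Nr4a1 led in the middle layer and layer 6 in both. Over the 24 groups made by 12 types and 2 libraries, Egr1 followed the mean profile of the other 9 genes most closely (Pearson's r = 0.85), then Arc (0.81) and Npas4 (0.80), and Dusp1 (0.37) and Junb (0.45) least. The groups of 1 library share its depth and its nuclei preparation, so these values are a description.

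These RNAs were detected in a smaller share of SAH nuclei. With each nucleus thinned to 3000 UMIs, at least 1 of the 10 genes was detected in 28.6% of 4280 Normal excitatory nuclei (interval 27.2 to 30.0) and in 11.7% of 5511 SAH nuclei (10.8 to 12.6), after 155 and 86 shallower nuclei were left out. At least 3 of the genes were found together in 2.36% and 0.254%. Without thinning, when median depths were 10944 and 12774 UMIs, these shares were 57.4% and 37.7% for at least 1 gene and 14.9% and 2.72% for at least 3. Fos and Npas4 were found in the same nucleus in 20 Normal cases, among 69 nuclei with Fos and 160 with Npas4, and in 1 SAH nucleus, among 23 and 58. The product of the single-gene shares gives 2.58 Normal and 0.242 SAH nuclei, and both joint counts lay above it. The SAH count is 1 nucleus of a pair picked from all pairs of the 10 genes. Whether joint detection differed beyond the lower share of each gene was not tested.

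By type, the thinned share with at least 1 gene was 37.9% in Normal and 12.1% in SAH for the middle layer, 36.1% and 16.4% for layer 6, 32.1% and 14.1% for hippocampal pyramidal neurons and 19.0% and 6.43% for thalamic relay neurons. Upper layer neurons had 19.6% and 8.43%. The intervals of the libraries were apart in these 5 types. Dentate granule neurons had 10.3% in Normal and 11.1% in SAH, with overlapping intervals, and striatal neurons 20.7% and 11.04%, also overlapping. For inhibitory neurons as a class the shares were 13.2% and 7.37%.

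**Figure D4:**
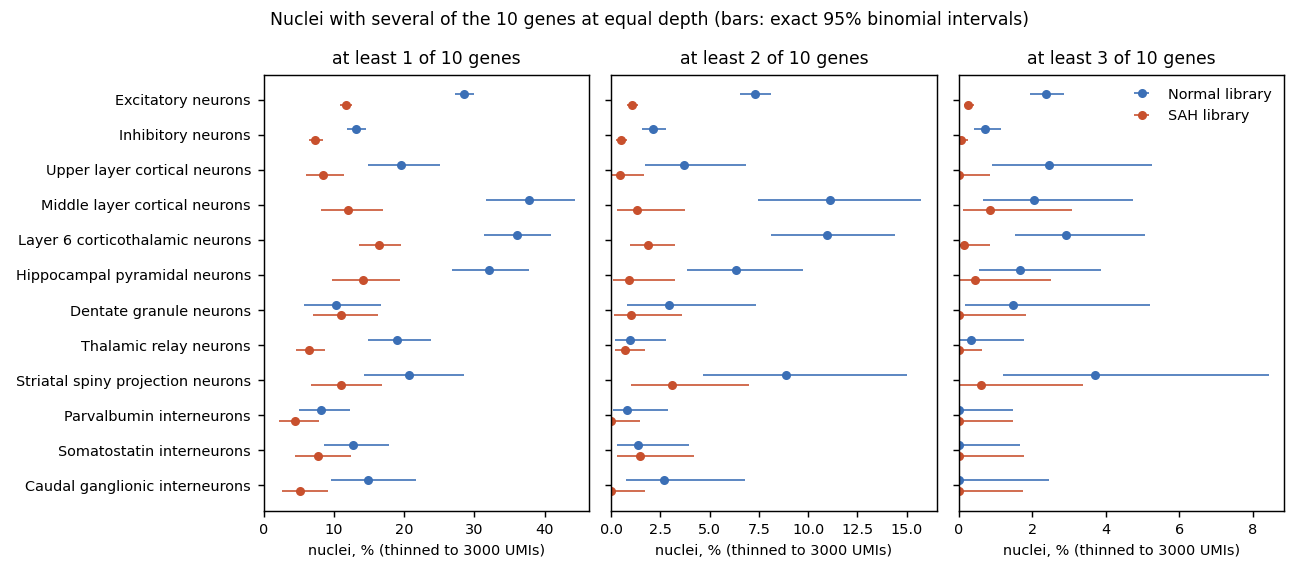
Percent of nuclei with at least 1, 2 or 3 of the 10 genes after thinning each nucleus to 3000 UMIs, by neuron type, with exact 95% binomial intervals and 1 point per library. The Normal share with at least 1 gene exceeds the SAH share in all rows but dentate granule neurons.

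Free RNA in the droplets can add to such shares. Arc, a neuronal RNA, was detected in 1.58% of Normal and 0.287% of SAH excitatory nuclei thinned to 1000 UMIs, and in 0.784% and 0.219% of oligodendrocytes, whose median depths were 1897.5 and 2264 UMIs. The SAH share in excitatory nuclei thus lay within the interval of SAH oligodendrocytes (0.0881% to 0.451%) at this depth. The oligodendrocyte share is not a floor for neurons, since these glia were shallower before thinning and had more Arc than relay neurons. How much of the SAH share in excitatory nuclei was free RNA was not tested. With nuclei thinned to 3000 UMIs, Arc was found together with Npas4 in 21 Normal and 5 SAH excitatory nuclei. The product of their shares gives 6.62 and 0.463 nuclei. Npas4 stood further from its oligodendrocyte shares, at 1.65% and 0.43% in excitatory nuclei against 0.131% and 0.0938% in oligodendrocytes. Arc and Npas4 UMIs in glia cannot be told apart from free RNA.

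In oligodendrocytes, the myelin-forming glia, the 10 genes together were nearly level. The sum was 46.1 CPM in 1662 Normal nuclei (165 UMIs) and 39.6 CPM in 3231 SAH nuclei (319 UMIs), with a log2 ratio of -0.22 (interval -0.49 to 0.06; length-centred 0.25). Arc was lower, at 9.50 CPM (34 UMIs) and 2.73 CPM (22 UMIs), and was the 1 of 5 genes with 50 UMIs past 2-fold, beside 6.31% of all genes. Of genes of like length, 16.8% were lower by 2-fold. Junb was at 3.91 CPM in Normal and 6.33 CPM in SAH (14 and 51 UMIs) and Dusp1 at 6.43 and 9.44 CPM (23 and 76 UMIs). The intervals of both reached no difference, from -0.18 to 1.66 and from -0.13 to 1.29.

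The near-level sum hid unlike groups of SAH nuclei. A cluster with no Normal nucleus held 282 SAH oligodendrocytes, 8.73% of them, and 115 of the 319 SAH UMIs of the 10 genes. Its sum was 160.8 CPM (interval 133 to 193), 5.79-fold that of the other SAH oligodendrocytes at 27.8 CPM (interval of the fold 4.56 to 7.31). Junb was at 48.9 CPM in the cluster (35 UMIs) and 2.18 CPM in the other SAH nuclei (16 UMIs), Egr1 at 50.3 CPM (36 UMIs) and 4.91 CPM (36 UMIs), and Fos at 19.6 CPM (14 UMIs) and 1.09 CPM (8 UMIs). Dusp1 was at 22.4 and 8.18 CPM. Egr3 was at 9.79 CPM (7 UMIs) and 2.18 CPM (16 UMIs), a ratio of 4.49-fold. The AP-1 subunits Fos and Junb, Egr1, Egr3 and the phosphatase Dusp1 were thus high together in it, with intervals apart from those of the other SAH nuclei.

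For Arc, Npas4, Nr4a3, Nr4a1 and Fosb the interval of this fold reached no difference. Nr4a1 was at 5.59 CPM in the cluster (4 UMIs) and 3.27 CPM in the other SAH nuclei (24 UMIs), and Fosb had 1 and 3 UMIs. The upper end of the fold was 4.22 for Arc, 15.5 for Npas4, 2.49 for Nr4a3 and 4.98 for Nr4a1, so a rise of these genes is not excluded. Arc was at 2.80 CPM in the cluster (2 UMIs) and 2.73 CPM in other SAH oligodendrocytes, and Npas4 and Nr4a3 had no UMI there, each with an upper bound of 5.16 CPM. Neuron markers were not raised in the cluster, with Snap25 at 105 CPM against 144 CPM and the excitatory markers together at 76.9 against 77.0 CPM. Glial nuclei were, however, gated to hold at most 1 transmitter UMI. Oligodendrocyte markers summed to 15574 CPM, against 16440 CPM. Median depth was 2388.5 UMIs in the cluster and 2250 UMIs in the rest. The cluster was noticed after the values had been seen, so these are a description of this library. Outside it the sum was lower in SAH, with log2 ratios of -1.06, -1.33 and -0.54 in the clusters shared by both libraries, the last with an interval that reached no difference (-1.92 to 0.85). The cluster with most Normal oligodendrocytes held 43 SAH ones with 2 UMIs, at -0.95 (-4.02 to 0.94).

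**Figure D5:**
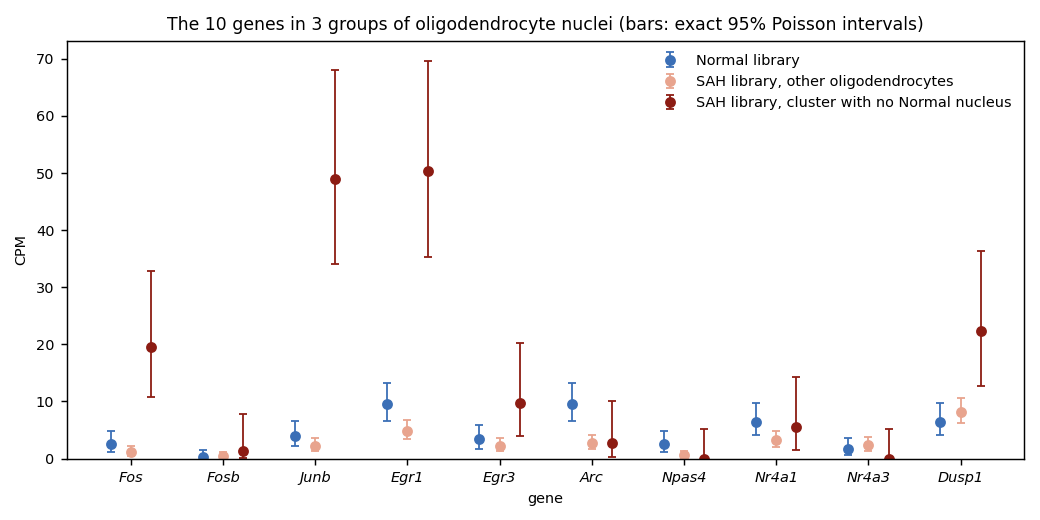
Level of each gene in Normal oligodendrocytes, in SAH oligodendrocytes outside the cluster found in SAH alone, and in that cluster, in CPM with exact 95% Poisson intervals. Junb, Egr1, Fos and Dusp1 are high in the cluster (19.6 to 50.3 CPM), as is Egr3 at 9.79 CPM, while Arc, Npas4 and Nr4a3 are at or near 0 to 2.80 CPM.

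Microglia, the resident immune cells, had a sum of 81.1 CPM in 955 Normal nuclei and 59.2 CPM in 1148 SAH nuclei (log2 ratio -0.45, interval -0.83 to -0.08; length-centred 0.01). Junb made up the largest part, at 34.8 CPM (49 UMIs) and 21.2 CPM (47 UMIs), and was the only gene with 50 UMIs. It was not past 2-fold, where 5.37% of all genes were lower and 6.7% higher. Dusp1 had 7 and 20 UMIs and Nr4a1 9 and 22 UMIs, with intervals of the log2 ratio from -0.44 to 2.34 and from -0.54 to 1.94. Most SAH microglia lay in a cluster with 12 Normal and 663 SAH nuclei, at 61.1 CPM in SAH. In the shared cluster, with 939 and 483 nuclei, the sum was 81.5 and 55.9 CPM.

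Other genes of the same programme were read from 3 lists, which were not matched by length. Genes near the 10 genes in length were lower by 2-fold in 11.2% of cases in excitatory, 14.4% in inhibitory and 13.2% in thalamic relay neurons. In oligodendrocytes 16.8% of them were, and in microglia 20.6%. Of the other rapid response genes, 13 of 29 with 50 UMIs were lower by 2-fold in excitatory neurons and 1 was higher, beside 4.57% and 8.12% of all genes, with a median log2 ratio of -0.94 where that of all genes was -0.11. Klf10, a zinc finger repressor, was at 20.4 CPM in Normal and 3.64 CPM in SAH (-2.48), Egr4 at 4.16 and 0.882 CPM (-2.24), and Trib1, a pseudokinase, at 4.41 and 0.984 CPM (-2.16). Atf3, a factor induced by cell stress, went the other way, with 6 Normal and 54 SAH UMIs (0.104 and 0.690 CPM). In inhibitory neurons 3 of 19 were lower by 2-fold, beside 4.6% of all genes and 14.4% of those near the 10 genes in length. These were the kinase gene Sik1 (-1.38), Egr4 (-1.13) and Klf10 (-1.02). The median was -0.63 against -0.17 over all genes. In thalamic relay neurons 1 of 5 was, beside 3.73% of all genes, namely Dusp6 (-1.33), and the median was -0.93 against -0.09.

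The regulators that act upstream were counted in the same way. The 33 genes are those of SRF, CREB and MEF2 factors, their co-factors, kinases, calcium channels and NMDA receptors. Of these, 0 passed 2-fold in excitatory neurons, 0 in inhibitory neurons and 0 of 31 in thalamic relay neurons. Of all genes, 4.57%, 4.6% and 3.73% were lower by 2-fold in these types and 8.12%, 5.96% and 4.66% higher. The median log2 ratios of the list were -0.02, -0.01 and -0.02. In layer 6 the CREB co-activator Crtc2 was lower, at 9.44 and 4.64 CPM (-1.03), and the kinase gene Rps6ka5 higher, at 52.6 and 130 CPM (1.30), of 31 genes with 50 UMIs. Rps6ka5 was also the 1 higher of 31 in the upper layer (1.12), where 4.37% of all genes were higher. In layer 6, 4.32% of all genes were higher and 4.95% lower. Both genes were named after their values were seen. Of the late activity genes, 4 of 27 were lower by 2-fold in excitatory neurons and 2 were higher, shares to be set beside the 4.57% and 8.12% of all genes. At any ratio 23 were lower and 4 higher, and the median log2 ratio was -0.61 where that of all genes was -0.11. The late medians were -0.18 against -0.17 in inhibitory neurons and -0.13 against -0.09 in thalamic relay neurons. The secreted peptide precursor Vgf was at 42.5 and 12.9 CPM (-1.71), the stress peptide Crh at 1.34 and 0.332 CPM (-2.01), Gadd45a at 2.19 and 0.562 CPM (-1.96) and the kinase Plk3 at 5.12 and 1.93 CPM (-1.41). The higher genes were Inhba, an activin subunit, at 25.7 and 57.4 CPM (1.16), and Acan, an aggrecan of the perineuronal net, at 0.801 and 1.74 CPM (1.12), both named after their values were seen. In inhibitory neurons Vgf (-1.77), Gpr3 (-1.46) and Plk3 (-1.45) were the 3 lower of 26, and Inhba (1.57) the 1 higher, beside 4.6% and 5.96% of all genes. In thalamic relay neurons Inhba (1.39) was likewise the 1 higher of 19, beside Vgf (-1.49), Plk2 (-1.35) and Rgs4 (-1.20) lower, where 4.66% of all genes were higher and 3.73% lower.

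In oligodendrocytes the other rapid response genes had 1 of 11 lower and 2 higher by 2-fold, beside 6.31% of all genes lower and 7.75% higher, which are also the shares for the regulators and late genes of this type. Maff, a small Maf factor, had 4 Normal and 57 SAH UMIs (1.12 and 7.08 CPM), and Zfp36, which speeds the decay of inflammatory mRNAs, 5 and 55 UMIs (1.40 and 6.83 CPM), while Nr4a2 was lower (-1.17). Among upstream regulators Mapk3 was lower (-1.12, the 1 of 32). The late list had 3 lower and 2 higher of 18. The cell cycle inhibitor Cdkn1a was at 2.79 CPM (10 UMIs) in Normal and 69.7 CPM (561 UMIs) in SAH, the potassium channel gene Kcna1 at 471 and 1105 CPM, and Vgf (-1.48) and Bdnf (-1.43) were lower, as was Scg2 (-1.08), named after its value was seen. Microglia had 1 of 9 rapid genes lower, Ier5 (-1.003), 1 of 30 regulators higher, the calcium channel gene Cacna1d (1.22), and 2 of 12 late genes lower, Scg2 and Rgs2 (-1.41 each), against the 5.37% of all genes lower and 6.7% higher.

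Outside these lists, the genes whose levels followed the 10 genes most closely over the same 24 groups, among 13968 genes with at least 200 UMIs, were Rmnd5b (r = 0.78), the clock gene Per2 (0.78), C1qtnf12 (0.77), Nab2 (0.77), which encodes a co-repressor that binds Egr factors, and Pcdhga12 (0.77), a protocadherin. In excitatory neurons Per2 was at 37.2 CPM in Normal and 14.2 CPM in SAH (log2 ratio -1.39), Nab2 at 8.46 and 3.92 CPM (-1.11) and Rmnd5b at 18.8 and 14.5 CPM (-0.37). Per2 alone of these 5 stayed among the first 5 when 10 rather than 1 was added to the CPM before taking logs.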

How the data were processed

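Single nuclei of 2 pooled libraries, Normal and SAH, had been sequenced as 3′ tags. The authors aligned the reads to mm10 with intronic reads included, and the deposited files hold raw UMI counts per gene and nucleus, without normalization. The submitters' processing notes name Cell Ranger 5.0.0, whereas the file header names 6.1.2. No annotation of nuclei was used.

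Nuclei with 300 to 7000 genes, at most 10% mitochondrial and 3% haemoglobin UMIs and at most 100000 UMIs were kept. Doublet scores came from Scrublet (scanpy 1.11.5), run library by library, and the top-scoring 0.8% for every 1000 nuclei in the library were dropped. A nucleus was called excitatory (Slc17a7, Slc17a6) or inhibitory (Gad1, Gad2, Slc32a1) when it had at least 1 UMI of these transmitter genes and at least 4 times as many as of the other kind. Within these classes a type needed 2 distinct markers and the highest mean marker level, above 0.4 on the log2 scale, and glia needed 3 distinct markers, a level above 1 and at most 1 transmitter UMI. Gated types used here had at least 100 nuclei per library and at least 60% of them in 3 leading clusters of 48, which were built without the 10 genes and the related lists (25 principal components, 2000 variable genes, resolution 1.2, leidenalg 0.10.2). The marker lists were written down first, and the gate thresholds were set after the files had been seen. The 10 genes and all lists were chosen with earlier results of these data known.

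UMIs of a gene were summed over the nuclei of a type and divided by all their UMIs. Ratios carry exact conditional binomial intervals, levels exact Poisson intervals and shares exact binomial intervals (scipy 1.17.1). With 1 library per condition no test was run. A gene was called past 2-fold with at least 50 UMIs over both libraries. Gene models were those of GENCODE on GRCm38, which gave a length for 99.8% of genes. Of each related list, at most the 4 genes furthest past 2-fold in a type are named, and of all other genes the 5 most like the mean profile of the 10 genes (log2 of CPM plus 1). Alternatives were a stricter nucleus filter, no filter, doublets kept, cluster-based types, thinning, centring, other UMI minima and subsets of clusters, of which the subsets were chosen after seeing the data. The computation of intervals was tested on simulated data. Other steps used Python 3.11.15, numpy 2.4.6 and pandas 2.3.3. The staining, recording, behavioural and plasma experiments were not analysed here.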

Additional observations from a re-analysis of the deposited data

Results flagged for a closer look

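Fos, Fosb, Nr4a3, Junb and Dusp1 had a higher SAH than Normal level in oligodendrocytes and a lower one in excitatory neurons. The share of all genes with this pattern was not counted, so nothing is read from their number. In oligodendrocytes the interval of each of these ratios reached no difference. Fos had 9 Normal and 22 SAH UMIs there, Fosb 1 and 4, and Nr4a3 6 and 17. In oligodendrocytes 2 of these, Junb and Dusp1, had at least 50 UMIs. Junb had a log2 ratio (SAH over Normal) of 0.70 in oligodendrocytes, from 14 Normal and 51 SAH UMIs, and of -1.53 in excitatory neurons. Dusp1 had a ratio of 0.55 in oligodendrocytes, from 23 and 76 UMIs, and of -1.11 in excitatory neurons. Each sign rests on 1 library per condition, and the difference between the cell types was not tested. Of the SAH oligodendrocyte UMIs, 35 of the 51 of Junb and 16 of the 76 of Dusp1 came from the cluster of 282 nuclei that had no Normal nucleus. Without that cluster, the SAH level of Junb was 2.18 CPM, under the Normal level of 3.91 CPM, while that of Dusp1 was 8.18 CPM, above the Normal level of 6.43 CPM.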

How the results depend on the processing

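No paired analysis was possible because each condition had 1 library with no replicate number, and for the same reason no replicate could be left out. Of the alternatives to the main results, 137 stayed near the reported value and 28 moved. Ratios of sums and shares of nuclei were judged by the counting interval of the reported value. The count of genes past 2-fold, the background share and the most similar genes were judged by a fixed fold limit instead. Centring on genes of like length gave log2 ratios of the sum of -1.35 in excitatory, -0.62 in inhibitory, -0.99 in upper layer, -1.73 in middle layer, -1.37 in layer 6, -0.37 in hippocampal pyramidal, -0.46 in dentate granule, -0.62 in thalamic relay and -0.54 in striatal neurons, -0.88 in somatostatin and -0.35 in caudal ganglionic interneurons, 0.25 in oligodendrocytes and 0.0105 in microglia. Centring on all genes gave -1.55 in excitatory, -0.89 in inhibitory and -1.70 in layer 6 neurons. Types taken from clusters gave -1.31 in inhibitory, -1.94 in middle layer and -0.71 in hippocampal pyramidal neurons, and 0.13 in oligodendrocytes. Thinning to 1000 UMIs gave -1.46 in layer 6 neurons and -2.70 in somatostatin interneurons, and there alone turned the sign of 2 genes in layer 6 neurons, Junb to 0.36 and Dusp1 to 0.94, both from few UMIs. Among subsets of clusters, chosen after seeing the data, the shared clusters gave -1.86 in upper layer neurons and -0.67 in oligodendrocytes, and the leading cluster -0.14 in dentate granule neurons and -1.06 in oligodendrocytes. Without thinning, the share of excitatory nuclei with at least 1 of the 10 genes was 1.52 times as high in Normal as in SAH, against 2.45 times at 3000 UMIs. With 10 added to the CPM, 1 of the 5 most similar genes stayed. For single genes in single types, 572 of 627 values stayed within their interval, 53 moved, 14 of these through centring alone, and 2 changed sign. Depth limits most the 3 interneuron types, dentate granule and striatal neurons and microglia, where at most 2 of the 10 genes reached 50 UMIs.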

Other observations

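The 10 genes were also summed in nuclei outside the types described above. In nuclei with layer 5 markers, which were spread over many clusters, the 10 genes summed to 141.8 and 57.2 CPM (log2 ratio -1.31, interval -1.56 to -1.06). In 1262 Normal and 2551 SAH nuclei that passed the filters and had no type, the sum was 130.5 and 49.1 CPM (-1.41). The 1178 and 2644 nuclei removed as doublets had 110.1 and 41.1 CPM (-1.42). Subcortical GABA neurons, with 61 and 39 nuclei, had 29 Normal UMIs and 2 SAH UMIs, and oligodendrocyte precursors, with 30 nuclei each, had 4 and 4.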
